A study of Mus musculus with 28 samples.

Results

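The nuclear-encoded subunits of the respiratory chain were examined along the development of the mouse peripheral nerve. They were the protein-coding genes whose symbols begin as the subunit families of complexes I to V do (Nduf with a letter a, b, c, s or v and a digit, Sdha to Sdhd, Uqcr, Cox4 to Cox8 with a letter a to c, and Atp5). This rule found 82 genes among the 41605 gene identifiers of the count table, and 79 of them were among the 17700 genes that passed the filter on low counts. Complex I held 35 of the genes, complex II 4, complex III 8, complex IV 18 and complex V 17. Ndufa4 and Ndufa4l2 were placed with complex IV, where the Ndufa4 protein is now known to sit.

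The respiratory chain lies in the inner mitochondrial membrane. Complexes I and II pass electrons from NADH and succinate to ubiquinone, complex III hands them to cytochrome c, and complex IV transfers them to oxygen. The proton gradient built on the way drives the ATP synthase, complex V. Most subunits are encoded in the nucleus and a small core in the mitochondrial genome, and complex II is the only one with no mitochondrially encoded subunit and also the enzyme of the citrate cycle that oxidises succinate. Several complex IV subunits exist as a common form and a form known from heart, skeletal muscle or brown fat. In the peripheral nerve the axons, the Schwann cells that wrap and myelinate them, and the cells of vessels and connective tissue all hold mitochondria.

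Polyadenylated RNA was sequenced in bulk from nerves at 7 stages, with 4 libraries per stage and 28 in all. All mice were wild-type C57BL/6J and were not perfused. The stages were labelled E13 and E17 (embryonic days, which the study's text places 0.5 days after the day in the label), postnatal days 1, 5, 14 and 24 (P1, P5, P14 and P24) and the young adult at P60. The libraries of E13 each came from various nerves of 2 embryos, those of E17 from the sciatic nerves of 2 embryos, and those of each postnatal stage from the sciatic nerves of 1 mouse, and the label names sciatic nerve throughout. From E17 on the outer sheaths were stripped off. By the study's text a stage held 2 samples from males and 2 from females, which the labels used here do not tell apart, so sex was no term of the test. These stages run from Schwann cell precursors (E13) over immature cells that sort and begin to myelinate axons (E17 to P5) to the growth of myelin (P14 and P24) and its mature state (P60). Total counts ran from 13899895 to 37662780 per library. Levels are given as CPM, counts scaled to a common library total after TMM adjustment of the library sizes, and a difference is called where edgeR's quasi-likelihood test gave a Benjamini-Hochberg adjusted p under 0.05 over all 17700 genes.

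The samples are tissue lysates, in which fewer cells of a type and less RNA per cell cannot be told apart. The summed level of 7 Schwann cell markers was 324 to 660 CPM at E13, 8093 to 14624 at P1, 49797 to 63529 at P14 and 28694 to 38452 at P60. The E13 libraries stood apart. All 8 markers of neuronal cell bodies were present there with a sum of 948 to 1816 CPM, against 24.2 to 34.6 at E17, and 6 erythroid markers summed to 4242 to 25559 CPM against 318 to 883. The sums were also higher for 18 skeletal muscle markers, at 43.2 to 834 CPM against 12.6 to 40.2, and for 6 macrophage markers, at 162 to 398 CPM against 95.05 to 100.2. The deviations of the E13 libraries from their stage mean also followed GC content, with slopes of -0.93, 0.08, 0.12 and 0.72 log2 units per 10% GC in replicates 1 to 4, while the slope was -0.43 in P1 replicate 1 and between -0.17 and 0.20 in all others. The median subunit deviated by -0.44, -0.23, 0.16 and 0.54 (log2) in the same 4 E13 libraries. Subunit transcripts are short, with a median of 758 bases against 2642 for all genes tested. Counts for the later steps are therefore also given without the E13 libraries. Those of the step from E13 are also given with corrections for GC content and transcript length. Beyond these corrections, the part of tissue, cell makeup and GC content in the E13 comparison was not tested.

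Along the timeline 62 of the 79 subunit genes changed (test of all stage terms, adjusted p under 0.05), where 88.8% of all genes did. Summed over the 82 genes, the level was 8072 ± 2241 CPM at E13 and 5753 ± 180 at E17 (mean ± SD, n = 4). In the postnatal nerve it was 6472 ± 271, 6490 ± 242, 6098 ± 369, 6275 ± 317 and 5531 ± 202 CPM in the order of the stages. The E13 libraries alone spread from 6111 to 10997 CPM, so the E13 sum was high but its libraries differed more than those of any other stage. Among the genes tested, 49 had their highest stage mean at E13 and 15 at P24, and 36 had their lowest at P60 and 31 at E17.

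In the fit over all libraries most of the calls lay in the first step, from E13 to E17, where a fit on these 2 stages alone called 23 (background 46.9%). With all libraries 1 subunit gene was higher and 49 were lower (63.3% of those tested, against a background of 62.2% of all genes called). The median log2 fold change of the subunits was -0.49, against -0.08 over all genes. With a correction for transcript length 4 rose and 39 fell (background 62.1%), and these medians were -0.34 and -0.18. With a correction for GC content 2 rose and 58 fell (background 68.3%), with medians of -0.54 and -0.20. Without E13 replicate 4 the medians were -0.34 and -0.07. Cox5a, a nuclear subunit of complex IV beside its catalytic core, had the largest fall. Its 4 E13 libraries had 119, 76.9, 124 and 135 CPM and its E17 libraries 46.8, 46.5, 43.8 and 45.7 CPM. No E17 library reached the lowest E13 library, and the log2 fold change was -1.32 ± 0.13 (SE, edgeR adjusted p = 8.56e-10). Its transcript shares 32.05% of its sequence with another annotated gene, so part of its reads is uncertain.

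The other adjacent steps held few calls. From E17 to P1 4 subunits rose and 2 fell (7.59%, background 29.5%), from P1 to P5 1 rose (1.27%, background 17.6%), from P5 to P14 4 rose and 5 fell (11.4%, background 29.6%), from P14 to P24 1 rose (1.27%, background 5.45%), and from P24 to P60 1 rose and 13 fell (17.7%, background 16.1%). Single libraries moved some of these counts. From E17 to P1 3 subunits were called without E17 replicate 3 or P1 replicate 2, from P1 to P5 2 without P1 replicate 4, and from P5 to P14 4 without P5 replicate 4. From P24 to P60 8 were called without P24 replicate 2 and 6 without P60 replicate 3. The share of all genes called in these fits was not computed, so the counts cannot be set against a background. The scaling also moved the balance of rises and falls. With library size alone 3 rose and 4 fell from E17 to P1, 1 rose and 8 fell from P1 to P5, and 3 rose and 17 fell from P5 to P14 (background 30.8%, 24.7% and 34.5%), while the median of all genes lay at -0.11, -0.19 and -0.17. From P24 to P60 it left 1 rise and 5 falls (background 16.7%) with a median of -0.10, and a correction for transcript length 3 rises and 7 falls (background 17.2%), also with a median of -0.10. The subunit median from E17 to P1 was 0.07 with library size alone, and 0.06 with a correction for transcript length. The median log2 fold changes under TMM scaling in the same order of steps were 0.19, 0.05, -0.01, 0.06 and -0.22. From E17 to P1 65 of the 79 subunits lay above 0, and from P24 to P60 66 lay below 0, whether called or not. With a fold of at least 2 asked for as well, 2, 1, 1, 2, 0 and 1 subunits were called in the 6 adjacent steps (background 35.5%, 11.7%, 5.84%, 12%, 2.65% and 5.96%) and 5 for P60 against P1 (background 35.5%).

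The spread of the E13 libraries enters every call of this fit. Without them, 23 subunits rose and 5 fell from E17 to P1 (background 45.7%), 5 rose and 1 fell to P5 (background 35.2%), 9 rose and 13 fell to P14 (background 46.6%), 2 rose to P24 (background 14.5%) and 2 rose and 34 fell from there to P60 (background 31.2%). Every subunit called with all libraries was called again. Fits on the 8 libraries of a step alone called 23, 27, 5, 22, 3 and 36 subunits (background 46.9%, 45.3%, 31.3%, 53.6%, 13.4% and 30.4%), so the first step held fewer calls there and each later step more.

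**Figure D1:**
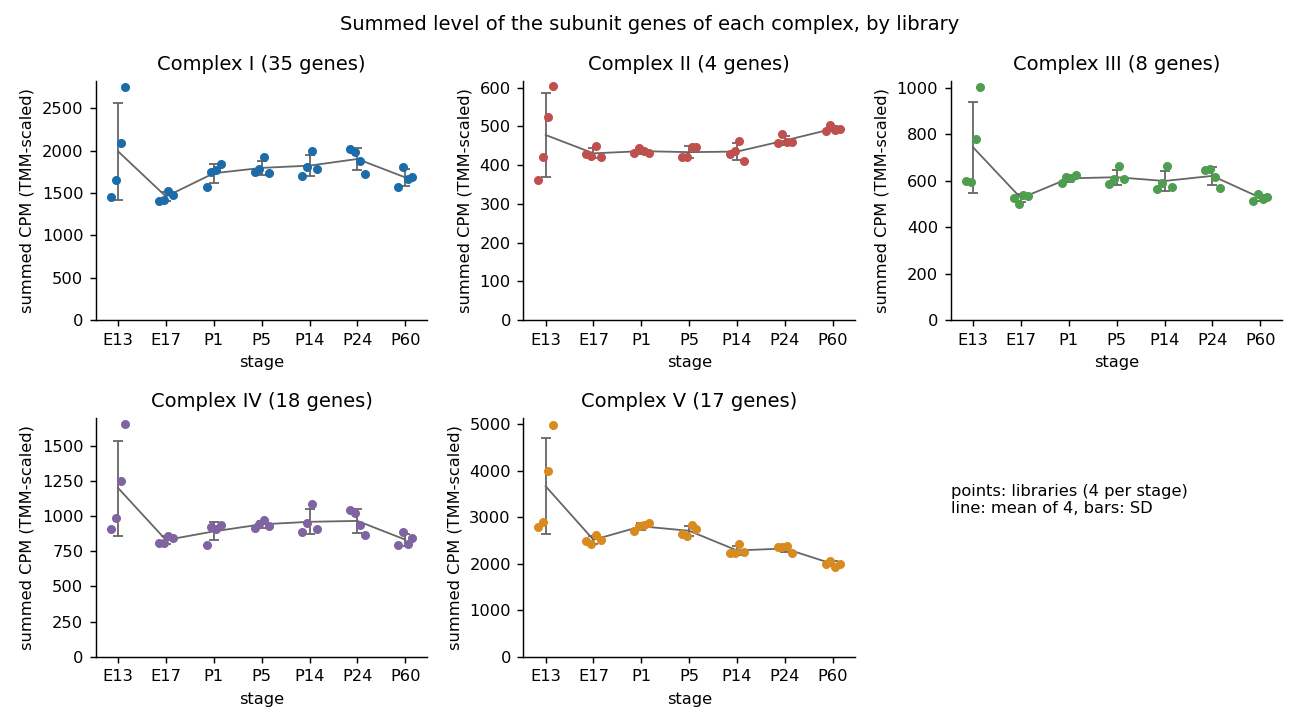
Summed level of the nuclear-encoded subunits of complexes I to V at each stage, in TMM-scaled CPM, with 1 panel per complex. Points are single libraries, and the line and bars give the mean and SD of 4 libraries. The sum of complex V was 2802 CPM at P1 and 1995 at P60, while that of complex II was 436 and 493.

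Between the newborn nerve at P1 and the adult nerve at P60, 9 of the 17 subunit genes of the ATP synthase fell and 1 rose, a share of 58.8% called, near the background of 61.1% of all genes. Over all complexes 11 subunits rose and 26 fell (46.8%, background 61.1%), with a median log2 fold change of -0.11 against -0.02 over all genes. Library size scaling gave 7 rises and 35 falls (background 63.5%) with a median of -0.31, and a correction for transcript length 18 and 21 (background 61.7%) with a median of 0.004. By complex, 4 rose and 10 fell of 35 in complex I, 2 rose and 1 fell of 4 in complex II, none rose and 3 fell of 8 in complex III, and 4 rose and 3 fell of 15 tested in complex IV. The median log2 fold changes of complexes I to V were -0.02, 0.16, -0.20, -0.08 and -0.39. With all stages but E13 in the fit, 13 rose and 32 fell (background 73.3%), and with only these stages 43 subunits were called (background 71.5%).

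The summed level of complex V lay below its P1 values in each adult library. It was 2691, 2814, 2824 and 2879 CPM at P1 and 1987, 2067, 1931 and 1994 CPM at P60, a log2 ratio of the means of -0.49. The sum over complex II was 431, 444, 437 and 431 CPM at P1 and 488, 503, 491 and 492 CPM at P60, a log2 ratio of 0.18. Neither pair of stages overlapped in its libraries. These are sums of abundant and rare genes and carry no test. Scaling by library size alone, under which the median of all genes lay at -0.22 in place of -0.02 between these stages, gave -0.69 and -0.02, so the direction for complex II depended on the scaling. The ratio of complex V to complex II within a library needs no scaling. It was 6.43 ± 0.19 at P1 (range 6.24 to 6.68) and 4.04 ± 0.08 at P60 (range 3.93 to 4.11), with 5.25 at P14 and 5.02 at P24 between them. Complex V made up 43.3 ± 0.63% of all subunit counts at P1 and 36.1 ± 0.69% at P60, and complex I 26.7 ± 0.66% and 30.4 ± 0.78%.

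**Figure D2:**
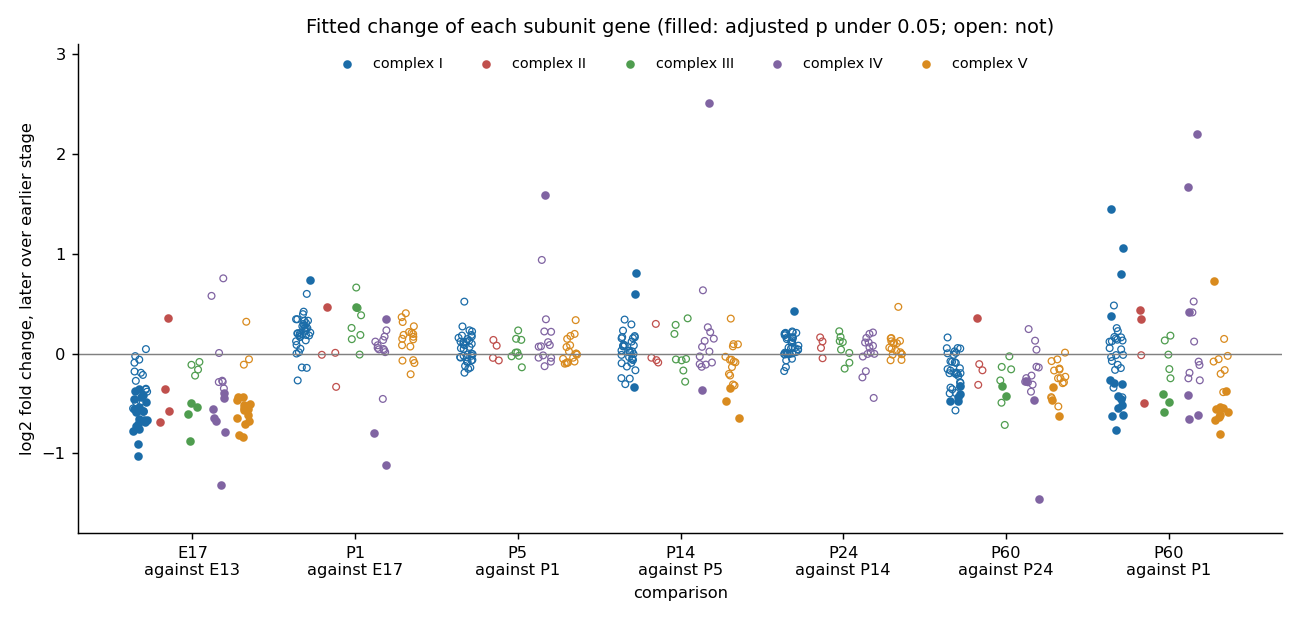
Log2 fold change of each subunit gene in the 7 comparisons, grouped by complex. Each point is 1 gene, and filled points have an adjusted p under 0.05. Cox8b is not drawn, since it had no counts at P1. From E13 to E17 49 filled points lie below 0. From P1 to P60 9 of the 17 points of complex V are filled and lie below 0, and open points lying below 0 are not counted here.

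Complex V carried the most abundant subunit. Atp5b, the catalytic beta subunit (chr10:128083273-128090391 in GRCm38), had the highest level per transcript length of all subunits, 412 RPKM (reads scaled for library size and transcript length) over all libraries. Its levels were 897, 889, 896 and 909 CPM at P1, 673, 645, 715 and 668 at P14 and 620.5, 609, 580.1 and 580.1 at P60. All P14 and P60 libraries lay below all P1 libraries, and the change from P1 to P60 was -0.59 ± 0.12 (log2, adjusted p = 0.000199). Atp5a1, the alpha subunit that alternates with it in the catalytic ring, had 573, 568, 625 and 569 CPM at P5 and 419, 401, 449 and 409 CPM at P14. These did not overlap, and the step was -0.48 ± 0.12 (adjusted p = 0.00432). At P60 it had 382, 411, 398 and 395 CPM, and against P1 it fell by 0.64 ± 0.12 on the log2 scale (adjusted p = 7.38e-05).

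The c subunits form the rotor ring of the ATP synthase, and 3 genes encode the same mature protein. Atp5g3 had 162, 149, 143 and 157 CPM at P1 and 90.6, 85.3, 82.0 and 92.5 CPM at P60. The groups did not overlap, and its change of -0.80 ± 0.11 (adjusted p = 3.68e-07) was the largest fall of any subunit between these stages. Atp5g1 fell from 72.3 ± 7.35 CPM at P24 to 46.7 ± 6.82 at P60 (-0.63 ± 0.19, adjusted p = 0.0207), and this call was lost without P24 replicate 1, P60 replicate 1 or P60 replicate 3 (adjusted p = 0.0563, 0.0662 and 0.0742). Per length, Atp5g3 made up 55.2 ± 8.9% of the 3 genes at P1 and 49.2 ± 3.9% at P60. Atp5g1 and Atp5g2 share 66.0% and 100% of their transcript sequence with other annotated genes, so their part of this sum is uncertain. The single gene of complex V that rose was Atp5s (Dmac2l in RefSeq), which was placed here by its symbol and encodes coupling factor B. It had 6.20, 5.58, 4.89 and 5.31 CPM at P1 and 9.21, 10.3, 8.58 and 8.35 CPM at P60, with no overlap (0.73 ± 0.20, adjusted p = 0.00247). Atp5e, the small epsilon subunit of the central stalk, was the third by mean level per length over all libraries at 216 RPKM. It was nearly tied with Atp5a1 (215) and Cox6b1 (214), and the order within single stages was not ranked.

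**Figure D3:**
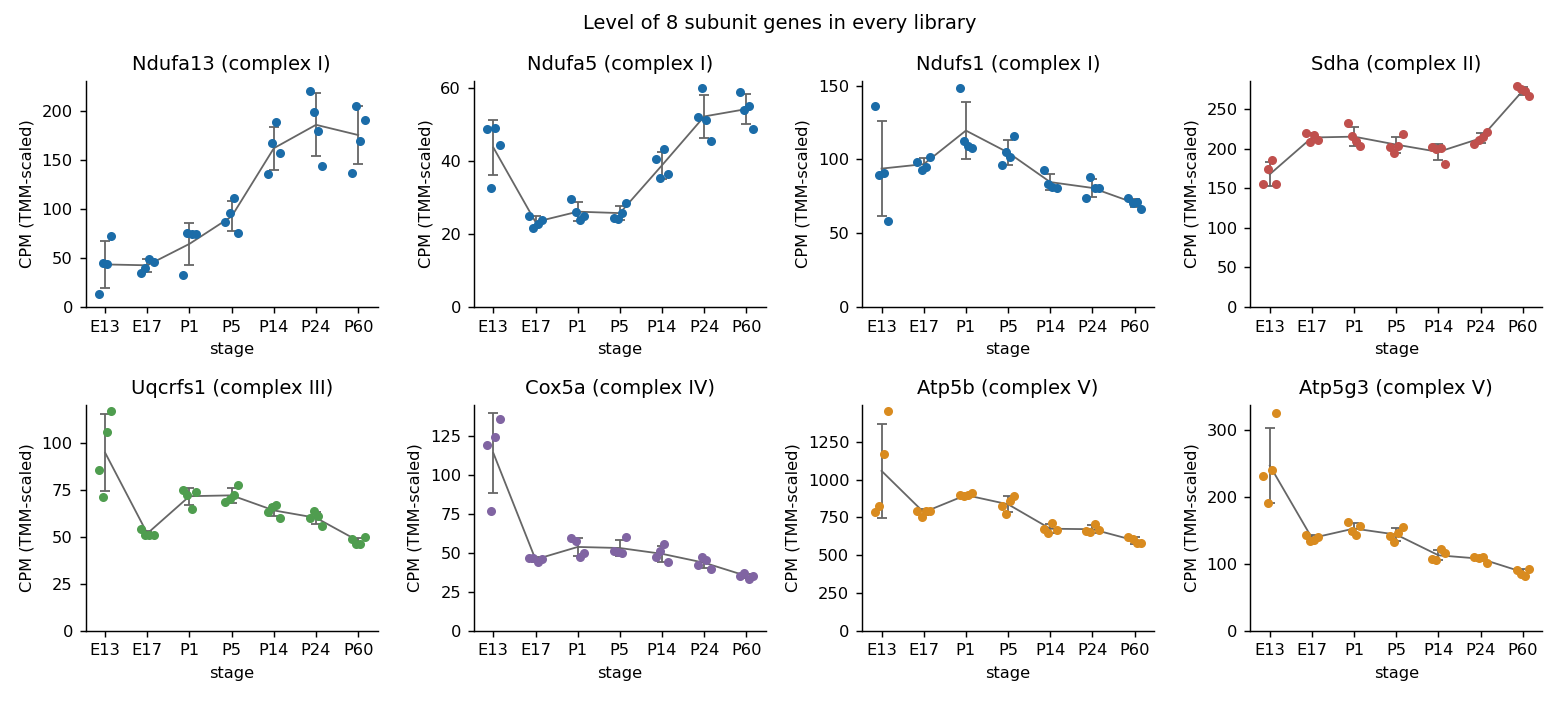
Level of 8 subunits in each of the 28 libraries, in TMM-scaled CPM by stage, with the mean of each stage. Ndufa13 and Ndufa5 of complex I and Sdha of complex II are higher at P60 than at P1, and Ndufs1, Uqcrfs1, Cox5a, Atp5b and Atp5g3 are lower.

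Within complex I the calls went both ways. The 4 subunits that rose from P1 to P60 were Ndufa13, Ndufa5, Ndufa6 and Ndufb10, all accessory ones, of which the last 2 are named after their values were seen. Ndufa13 (chr8:69894180-69902558), an accessory subunit also known as GRIM-19, had 32.8, 75.3, 74.96 and 75.02 CPM at P1, 135, 167, 189 and 157 at P14 and 137, 205, 169 and 191 at P60. Every library from P14 on lay above every P1 library. The change from P1 to P60 was 1.44 ± 0.30 (log2, adjusted p = 0.00017), and 1.25 (adjusted p = 0.000941) without the low P1 replicate 1. Its transcript shares 28.5% of its sequence with Tssk6, so reads of the pair may be mixed.

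Ndufa5, an accessory subunit of the matrix arm, had 24.4, 24.3, 25.9 and 28.5 CPM at P5, 40.5, 35.4, 43.3 and 36.5 at P14, 52.2, 60.1, 51.5 and 45.5 at P24 and 59.1, 54.2, 55.1 and 49.0 at P60. No library overlapped between P5 and P14 or between P14 and P24. It rose by 0.59 ± 0.12 from P5 to P14 (adjusted p = 0.000295) and by 1.05 ± 0.12 from P1 to P60 (adjusted p = 1.5e-08). It was also the one subunit called from P14 to P24 (0.43 ± 0.12, adjusted p = 0.0268), and that call was lost without any 1 of P14 replicates 1, 2 and 4 and P24 replicates 1, 2 and 3 (adjusted p = 0.0522 to 0.109) and with a correction for transcript length (adjusted p = 0.17).

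Among the core subunits, Ndufs1, which carries iron-sulfur clusters of the electron path, fell most. It had 149, 113, 109 and 108 CPM at P1 and 73.5, 70.3, 71.1 and 66.7 CPM at P60. The groups were apart even without the high P1 replicate 1, and the change was -0.76 ± 0.15 (adjusted p = 9.79e-05), or -0.61 (adjusted p = 0.00125) without that library. Ndufv2, a core subunit of the NADH-binding module, had 86.6, 90.2, 86.0 and 84.6 CPM at E17, 158, 141, 138 and 142 at P1 and 91.6, 101, 96.1 and 87.6 at P60. It was high at P1 and close to its E17 level in the adult. It rose by 0.74 ± 0.11 from E17 to P1 (adjusted p = 1.16e-05) and fell by 0.62 ± 0.11 from P1 to P60 (adjusted p = 2.86e-05), of which the second was lost with a correction for GC content (adjusted p = 0.21). Ndufv1, which binds NADH, had 64.1, 89.8, 101 and 102 CPM at P1 and 77.0, 85.7, 80.2 and 87.3 at P60, and these overlapped (-0.11 ± 0.20, adjusted p = 0.652). From P24 to P60 Ndufb6, an accessory subunit of the membrane arm, fell from 25.01 ± 1.93 to 17.9 ± 1.78 CPM (-0.48 ± 0.12, adjusted p = 0.00622).

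The 4 subunits of complex II did not move together. Sdha (chr13:74322254-74350280), the flavoprotein that oxidises succinate, had 155, 174, 186 and 155 CPM at E13, 220.0, 208, 217 and 211 at E17, 232, 216, 209 and 203 at P1, 206, 211, 215 and 221 at P24 and 279, 275, 272 and 267 at P60. The P60 libraries lay above all other 24 libraries and the E13 libraries below those of E17. It rose by 0.35 ± 0.08 from E13 to E17 (adjusted p = 0.000237), as the only subunit to do so in this fit, by 0.36 ± 0.08 from P24 to P60 (adjusted p = 0.00124) and by 0.34 ± 0.08 from P1 to P60 (adjusted p = 0.000301). With library size scaling the first and the last were not called (0.10 and 0.15, adjusted p = 0.282 and 0.118), and the first was also lost in the fit on E13 and E17 alone (0.36, adjusted p = 0.0544).

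Sdhc, a membrane anchor, had 66.8, 75.2, 76.4 and 74.7 CPM at P1 and 92.6, 111, 93.8 and 98.3 at P60. The groups did not overlap (0.43 ± 0.15, adjusted p = 0.0136), but the call was lost without P60 replicate 2 (adjusted p = 0.0503) and with library size scaling (adjusted p = 0.132). The other anchor, Sdhd, went the other way, with 84.3, 93.0, 86.7 and 85.1 CPM at P1 and 64.5, 58.3, 62.2 and 62.9 at P60 (-0.49 ± 0.12, adjusted p = 0.000589). Sdhb, the iron-sulfur subunit, had 47.9, 59.9, 64.9 and 67.9 CPM at P1 and 52.1, 58.9, 62.6 and 64.2 at P60, which overlapped (-0.02 ± 0.18, adjusted p = 0.951). Over the 28 libraries Sdha also followed the other subunits least. The Pearson correlation of its log2 level with the median of the other subunits was -0.56, followed by Ndufs1 at -0.33 and Atp5l at -0.29, while the median over 79 subunits was 0.63. Atp5l shares 84.8% of its transcript with another annotated gene, so its reads are uncertain. Depth and base composition are shared by these points, and the high E13 libraries weigh on each value.

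In complex III, Uqcrfs1, the Rieske iron-sulfur protein, was 85.4, 71.0, 105 and 117 CPM at E13, 53.9, 50.9, 50.9 and 51.0 at E17, 74.98, 72.3, 64.9 and 73.8 at P1 and 48.8, 46.4, 46.1 and 49.8 at P60. Among these 4 stages only the libraries of E13 and P1 overlapped. It fell by 0.87 ± 0.11 from E13 to E17 (adjusted p = 7.23e-08), rose by 0.47 ± 0.11 to P1 (adjusted p = 0.00121) and fell by 0.58 ± 0.11 from P1 to P60 (adjusted p = 3.22e-05). Uqcrc1, a core protein, had 73.3, 112, 108 and 115 CPM at P1 and 68.0, 75.2, 70.9 and 78.4 at P60. P1 replicate 1 lay among the adult libraries (-0.48 ± 0.20, adjusted p = 0.0415), and leaving out any other single library of these stages lost the call (adjusted p = 0.0519 to 0.123), as did a correction for transcript length (adjusted p = 0.0516). Uqcrh, the hinge protein, was the second by level per length at 267 RPKM. Uqcr10, a small accessory subunit, had the highest change of the 8 genes at 0.18 ± 0.29 (adjusted p = 0.613).

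In complex IV, Cox5a had 59.4, 57.8, 47.5 and 50.04 CPM at P1 and 35.4, 36.9, 33.1 and 35.0 at P60, with no overlap (-0.61 ± 0.13, adjusted p = 0.000136). Cox5b, the zinc-binding subunit, had 51.3 ± 2.74 CPM at P1 and 48.5 ± 7.19 at P60 (-0.08 ± 0.14, adjusted p = 0.647). Ndufa4 had 95.1, 91.6, 92.5 and 90.9 CPM at P1 and 61.8, 59.8, 56.0 and 56.9 at P60, again apart (-0.66 ± 0.11, adjusted p = 1.63e-05), although a correction for GC content lost the call (-0.39, adjusted p = 0.098). Its relative Ndufa4l2, known as induced by low oxygen and as a pericyte marker in other tissues, had 0.875, 1.21, 1.28 and 2.14 CPM at P1 and 4.02, 6.39, 3.11 and 4.21 at P60. All adult libraries were higher (1.67 ± 0.36, adjusted p = 0.000237), and per length its part of the pair went from 0.965% to 4.68 ± 1.3% (1.84% to 8.63% with the length of all exons in place of 1 transcript). Over the same stages 10 markers of pericytes and vascular smooth muscle summed to 281 to 352 CPM at P1 and 1083 to 1173 at P60, with 7 called higher and 1 lower. The smooth muscle gene Tagln went from 7.22 to 10.1 CPM at P1 to 371 to 413 at P60. The pericyte marker Abcc9 was the one that fell (-0.55, adjusted p = 0.0374), and Kcnj8 was not called (0.23, adjusted p = 0.32). The part of these cells in the change of Ndufa4l2 was not tested.

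Cox7a1 encodes the heart and muscle form of subunit 7a, and Cox7a2 the common form. Cox7a1 (chr7:30184144-30186078) had 0.656, 0.75, 0.656 and 0.745 CPM at P1, 2.25, 1.58, 1.93 and 2.75 at P5, 9.92, 14.3, 16.5 and 7.90 at P14, 8.36, 8.996, 10.03 and 8.28 at P24 and 3.58, 3.12, 3.73 and 2.57 at P60. It was lowest at P1 and highest at P14 and P24, and the adult libraries lay between. It rose by 1.59 ± 0.27 from P1 to P5 (adjusted p = 7.97e-05), where it was the only subunit called, and by 2.51 ± 0.24 from P5 to P14 (adjusted p = 7.48e-09). It fell by 1.45 ± 0.24 from P24 to P60 (adjusted p = 7.17e-05), and P60 was still 2.20 ± 0.27 above P1 (adjusted p = 6.59e-08). Cox7a2 had 78.5 ± 2.70 CPM at P1, 75.3 ± 4.10 at P14 and 68.7 ± 3.73 at P60 (-0.19 ± 0.14 from P1 to P60, adjusted p = 0.231). Counted per length, Cox7a1 made up 0.888 ± 0.033% of the 7a genes at P1, 12.1 ± 2.9% at P14 and 3.77 ± 0.56% at P60. Cox7a2l, which takes part in joining complexes III and IV, had 74.5, 88.7, 87.3 and 93.4 CPM at P1 and 108, 121, 116 and 114 at P60. These did not overlap (0.42 ± 0.15, adjusted p = 0.0164), and library size scaling lost the call (adjusted p = 0.157).

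Markers of skeletal muscle moved over the same stages. Of 15 tested, 6 were higher and none lower from P5 to P14 (40%, background 29.6%, median 1.78), and the sum over all 18 was 13.03 to 16.6 CPM at P5, 46.3 to 60.2 at P14, 51.2 to 68.98 at P24 and 60.4 to 74.2 at P60. Most of it came from Casq1, the calcium store protein calsequestrin, at 9.97 to 10.98 CPM at P5 and 30.4 to 37.8 at P14. Actn3, an actinin of fast fibres, had 0.477 to 0.959 CPM at P5, 5.42 to 9.92 at P14, 10.8 to 15.7 at P24 and 4.57 to 5.72 at P60. The muscle actin Acta1 had 0.904 to 3.72 CPM at P14 and at most 0.157 at P24, and the muscle creatine kinase Ckm at most 0.791 and 0.0494. The part of muscle in the course of Cox7a1 was not tested.

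Cox8b (chr7:140898945-140900446), the form of subunit 8 known from muscle and brown fat, was highest at P14. It had 3, 8, 0 and 1 counts at E13, 1, 0, 3 and 3 at E17, none in any P1 library, 0, 0, 0 and 1 at P5, and 20, 114, 227 and 4 counts (1.02, 6.44, 9.27 and 0.152 CPM) at P14. At P24 it had 16, 2, 26 and 16 counts, and at P60 5, 1, 13 and 32 counts (0.365, 0.0726, 0.808 and 2.01 CPM). The P14 libraries thus differed by far among themselves, and replicate 4 lay below E13 replicate 2 (0.323 CPM). P14 was called against P5 (adjusted p = 8.08e-05). Against a floor of 3 counts in the shallowest P1 library (0.125 CPM), the P14 mean of 4.22 CPM was at least 33.8-fold higher than P1, and at least 20.3-fold without P14 replicate 3, bounds that cover counting error only. The same libraries differed in Ucp1 and Cidea, which are markers of brown adipocytes. Ucp1 had 2.97, 30.5, 36.9 and 0.38 CPM and Cidea 1.28, 11.5, 16.5 and 0.152 CPM in P14 replicates 1 to 4, and at P24 and P60 Ucp1 was at most 0.44 CPM. Of the other brown adipocyte markers, Otop1 was also lowest in replicate 4 (0.562, 0.678, 0.735 and 0.266 CPM), while Dio2, Prdm16 and Ppara were lowest in replicate 1 and Elovl3 had no counts at P14. Prdm16 had 63.5, 65.2, 71.9 and 72.1 CPM and Ppara 6.03, 8.82, 7.35 and 6.99 CPM in the same libraries, and the sum over all 7 markers, of which Prdm16 was the main part, was 79.3 to 87.2 CPM at P5 and 75.1 to 135 at P14. Of the 8 general adipocyte markers 7 were lowest in replicate 4 and Retn in replicate 2, with 5.67, 7.29, 6.90 and 0.418 CPM of Plin1, 21.3, 6.33, 17.7 and 0.456 of Cfd and 4.09, 3.45, 4.94 and 0.076 of Cidec. Replicate 4 was taken as the only P14 library after these values were seen, as the one lowest in Cox8b, Ucp1 and Cidea, so no test of a single gene is given for it. In a fit with that library alone at P14, which is assumed to vary like the other stages, 1 subunit was called for P14 against P5 (background 7.77%) and none for P24 against P14 (background 0.954%). At P24 Ucp1 and Cidea had at most 0.105 CPM and Cox7a1 8.28 to 10.03 CPM. The part of adipocytes in the values of Cox7a1 and Cox8b was not tested. The common form Cox8a had 77.3 ± 5.86 CPM at P1, 99.9 ± 12.97 at P14 and 84.0 ± 11.3 at P60 and was not called between P1 and P60 (0.12 ± 0.17, adjusted p = 0.56).

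**Figure D4:**
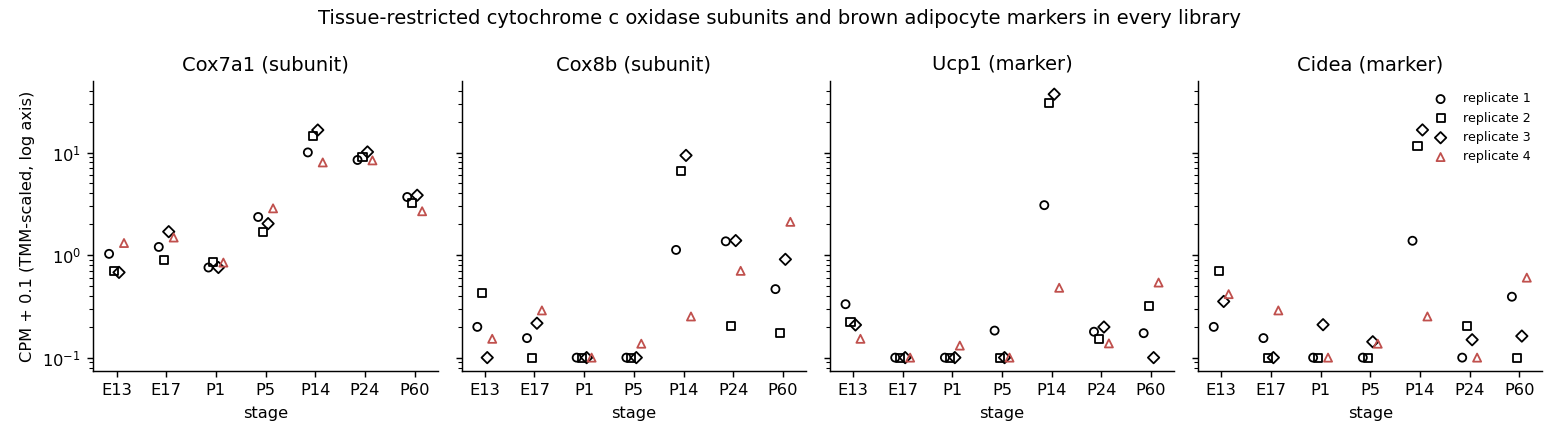
Level of Cox7a1, Cox8b, Ucp1 and Cidea in each library, as CPM plus 0.1 on a log axis, by stage. Red triangles mark replicate 4 of each stage. At P14 Cox8b, Ucp1 and Cidea are lowest in replicate 4, and Cox7a1 there is 7.90 CPM, above all P5 libraries.

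Because the restricted and the common forms of subunits 7a and 8 followed such different courses, the 250 bases before their RefSeq start sites are shown, 5′ to 3′ on the strand of the gene, with each CG dinucleotide in capitals. They are taken from RefSeq promoter windows in GRCm38.p6, at chr7:30183921-30184170 (plus strand, Cox7a1), chr9:79759854-79760103 (minus, Cox7a2), chr7:140900447-140900696 (minus, Cox8b) and chr19:7217617-7217866 (minus, Cox8a).
Cox7a1: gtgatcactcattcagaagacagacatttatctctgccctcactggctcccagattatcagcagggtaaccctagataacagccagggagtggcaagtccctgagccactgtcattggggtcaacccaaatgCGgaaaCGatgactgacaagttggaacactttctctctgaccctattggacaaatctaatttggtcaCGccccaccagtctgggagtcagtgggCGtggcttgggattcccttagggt
Cox7a2: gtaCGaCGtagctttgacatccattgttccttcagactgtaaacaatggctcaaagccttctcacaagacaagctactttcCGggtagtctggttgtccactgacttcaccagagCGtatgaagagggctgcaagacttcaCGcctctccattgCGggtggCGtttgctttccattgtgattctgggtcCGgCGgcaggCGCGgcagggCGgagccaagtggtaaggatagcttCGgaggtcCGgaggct
Cox8b: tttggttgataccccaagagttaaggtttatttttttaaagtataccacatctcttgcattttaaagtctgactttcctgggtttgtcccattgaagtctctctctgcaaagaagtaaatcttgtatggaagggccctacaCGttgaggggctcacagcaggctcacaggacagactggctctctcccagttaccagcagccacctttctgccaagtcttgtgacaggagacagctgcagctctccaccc
Cox8a: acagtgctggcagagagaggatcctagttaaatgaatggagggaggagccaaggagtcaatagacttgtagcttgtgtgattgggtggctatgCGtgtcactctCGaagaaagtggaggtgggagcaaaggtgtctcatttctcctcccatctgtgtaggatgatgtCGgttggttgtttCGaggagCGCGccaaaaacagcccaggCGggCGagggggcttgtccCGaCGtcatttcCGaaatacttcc
The printed stretches of the restricted forms hold 4 (Cox7a1) and 1 (Cox8b) CG, and those of the common forms 14 (Cox7a2) and 11 (Cox8a). In the full window of 300 bases, which reaches 50 bases past the start, Cox8b had 2 CG, the fewest of the 68 subunit genes with a window, and Cox7a1 had 7, with 2 subunit genes below it. The other pairs with windows differed among themselves, as the common form Cox7b had 5 CG and its restricted relative Cox7b2 10, and Cox6b1 had 17 and Cox6b2 10. The median was 19 CG over subunit genes and 15 over all protein-coding genes.

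All 82 genes were matched to RefSeq and 68 had a promoter window. Known regulators of respiratory genes were sought by their letters on both strands. The motif of NRF1, spelled with 1 open base in its middle, lay in the windows of 17 of 68 subunit genes (25%), against 7.17% of 17491 protein-coding genes. The YY1 motif AAGATGGCG was found in 10.3% against 2.14%, the ERR motif TNAAGGTCA in 4.41% against 1.19%, and the ETS and GABP motif CCGGAAGT in 7.35% against 5.69%. All but the ERR motif contain CG. The lower quartile of CG per window was 15 over subunit genes and 4 over all protein-coding genes, and the upper quartile 25 in both. The shares were not matched for CG content. Genes with an NRF1 match went both ways between P1 and P60. They included Sdha, with 3 matches, and Ndufa5, which were higher at P60, and Sdhd and Atp5g3, which were lower. The windows of Cox7a1, Cox7a2 and Cox8b held none of these motifs. A match is a run of letters and not a measured site.

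Other tissue-restricted forms stayed rare. Cox6a2, the heart and muscle form of subunit 6a, had 107 counts in total and was not tested, with 57 of them in E13 replicate 2 and at most 13 in any other library. That library also had the highest level of the muscle actin Acta1, 95.5 CPM. Cox7b2 had 5 counts in 3 libraries and Cox8c none, which for a library allows up to 3 counts. Cox6b2, the testis form of subunit 6b, made up 2.67 ± 0.26% of the 6b genes per length at P1 and 4.54 ± 1.2% at P60 (1.30% and 2.24% with the length of all exons) and was not called (0.52 ± 0.28, adjusted p = 0.105). Cox7b, whose restricted relative is Cox7b2, had 73.2, 69.8, 70.7 and 67.4 CPM at P1 and 56.2, 53.6, 50.9 and 50.1 at P60. The groups were apart (-0.41 ± 0.09, adjusted p = 0.000138), and a correction for GC content lost the call (-0.13, adjusted p = 0.517). Cox4i1 and Cox4i2 fall outside the symbol rule. Cox4i1 did not pass the test between P1 and P60 (0.21 ± 0.23, adjusted p = 0.454), and Cox4i2, the lung form, rose from 0.327 ± 0.063 to 1.02 ± 0.44 CPM (1.62 ± 0.43, adjusted p = 0.00207).

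The surrounding genes of the pathway were read from lists, for P1 against P60 and beside the same background of 61.1%. Of 11 mitochondrially encoded subunits tested, 1 rose and none fell. That one was mt-Atp6, at 0.138 ± 0.170 CPM at P1 and 4.17 ± 8.06 at P60 (adjusted p = 0.00804), and without P60 replicate 2, which had 16.3 CPM, the call was lost (adjusted p = 0.941). Its mean at P1 lay near the floor of 3 counts in the shallowest P1 library (0.125 CPM). The catalytic subunit mt-Co1 had 10053 ± 1070.2 CPM at P1 and 10827 ± 369 at P60 (0.11 ± 0.26, adjusted p = 0.741). Mitochondrial transcripts carry short tails, and how poly-A selection takes them up was not measured.

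Assembly factors build the complexes without staying in them. For complex I 1 of 15 rose and 6 fell, for complexes II and III 2 of 10 rose and 4 fell, for complex IV 3 of 21 rose and 8 fell, and for complex V 2 of 5 rose and 1 fell. Cox17, the copper chaperone of complex IV, had 10.2, 13.99, 14.3 and 11.9 CPM at P1 and 23.5, 34.7, 40.2 and 38.6 at P60. It rose by 1.44 ± 0.15 (adjusted p = 5.4e-09) with no overlap. Lrpprc, which stabilises mitochondrial messenger RNA, fell by 1.15 ± 0.16 (adjusted p = 5.67e-07). The assembly factor Ndufaf4 of complex I fell by 1.10 ± 0.22 (adjusted p = 9.09e-05) and Ndufaf8 rose by 0.89 ± 0.29 (adjusted p = 0.00887). Sdhaf3 of complex II fell by 1.11 ± 0.27 (adjusted p = 0.000792) and Uqcc3 of complex III rose by 0.83 ± 0.26 (adjusted p = 0.00814). Atpaf1, which assembles the catalytic head of complex V, fell by 0.79 ± 0.20 (adjusted p = 0.00117), and Fmc1 rose by 0.58 (adjusted p = 0.0288), a call lost without P1 replicate 1 or 2 or P60 replicate 2 or 4 (adjusted p = 0.0542 to 0.0814) and with library size scaling (adjusted p = 0.125).

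Of 17 regulators of mitochondrial biogenesis, 2 rose and 7 fell. Gabpa, the DNA-binding subunit of GABP, had 126, 108, 102 and 99.6 CPM at P1 and 49.5, 49.7, 50.2 and 49.7 at P60, with no overlap (-1.13 ± 0.19, adjusted p = 1.13e-05). Esrra, the estrogen-related receptor alpha, had 5.39, 11.5, 13.7 and 14.5 CPM at P1 and 15.6, 23.1, 20.02 and 24.7 at P60 (0.89 ± 0.32, adjusted p = 0.0197). The groups did not overlap, and the call was lost without P1 replicate 1 or P60 replicate 4 (adjusted p = 0.0719 and 0.0561) and with library size scaling (adjusted p = 0.0578). Of 13 citrate cycle enzymes 1 rose and 7 fell, led by Suclg2, a subunit of succinyl-CoA ligase (-0.64 ± 0.11, adjusted p = 1.19e-05). Idh3g, a regulatory subunit of isocitrate dehydrogenase, was the one that rose (0.36 ± 0.12, adjusted p = 0.00806), and library size scaling lost it (adjusted p = 0.18).

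Of 15 other abundant mitochondrial proteins 12 fell and none rose, with a median log2 fold change of -0.91. The largest fall was that of Slc25a5, an ADP/ATP carrier of the inner membrane. It had 276, 326, 321 and 324 CPM at P1 and 103, 98.2, 99.4 and 102 at P60, which did not overlap (-1.63 ± 0.13, adjusted p = 2.08e-11). Cycs, the cytochrome c that links complexes III and IV, fell from 39.0 ± 3.26 to 22.3 ± 1.71 CPM (-0.80 ± 0.11, adjusted p = 7.51e-07). Over the same interval Mki67 and Top2a, markers of dividing cells, summed to 825 to 1166 CPM at P1 and 2.55 to 4.14 at P60, and 8 adipocyte markers to 2.88 to 8.24 CPM and 208 to 552 CPM. Their part in the falls and rises above was not tested.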

How the data were processed

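Polyadenylated RNA of 28 nerve samples was measured, and groups were taken from the stage labels. The authors trimmed single-end reads of stranded libraries, aligned them with STAR 2.6.1c and summed them over genes by featureCounts. The deposited values are raw counts. The build is GRCm38.p5 in the submitters' processing notes and a human build name in the methods, and the settings for strand and for reads with several alignments are not given in the sources used here. Reads of overlapping genes and near-copies are therefore uncertain. GENCODE M21 (GRCm38) gave names, positions and lengths for 41519 of 41605 identifiers.

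Genes were filtered with filterByExpr by stage and scaled by TMM. With edgeR 4.0.16 in R 4.3.3, a single quasi-likelihood model over the 28 libraries held stage as its only term, so the sexes that a stage mixes by the study's text were not modelled. The procedure was tested on simulated data. Alternatives used limma 3.58.1, DESeq2 1.42.0 and those named in the closing section. Paralog shares used the length of 1 transcript per gene. The members, gene lists and tests were chosen with earlier results of these data known. Genes were named by rule: all paralogs and complex II genes, fixed core subunits, the 2 largest rises and falls per comparison with at least 10 CPM and no overlap between libraries, the extremes per complex or list for P60 against P1, the 3 highest and lowest per length, and the 3 lowest correlations. Same-numbered libraries deviated together in every pair (r over 0.1) for P1 against E17 (0.11 to 0.22) and P60 against P1 (0.11 to 0.34), and not in the other comparisons, although the labels give the numbers no meaning. P-values measure the spread between these samples. Bounds cover counting error only, since reads carried no molecular identifiers.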

Additional observations from a re-analysis of the deposited data

Results flagged for a closer look

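In groups of 4 libraries, 1 library stood apart from the other 3 by more than Dixon's 95% critical value of 0.829 in 15 of 217 groups tested. About 1 in 20 groups is expected by chance. At P1 replicate 1 had 32.8 CPM of Ndufa13 (74.96 to 75.3 in the others), 149 of Ndufs1 (108 to 113), 73.3 of Uqcrc1 (108 to 115) and 535 of Atp5a1 (639 to 654), and this is the library with the GC slope of -0.43. At E17 Sdhb had 67.3 CPM in replicate 3 (57.7 to 59.1), Ndufa4 had 79.8 in replicate 3 (92.1 to 94.6), Uqcrfs1 had 53.9 in replicate 1 (50.9 to 51.0) and Atp5b had 756 in replicate 2 (791 to 795). At P5 Cox5a had 60.3 CPM in replicate 4 (49.9 to 51.4), Cox8b had 0.0367 in replicate 4 (0 in the others) and Atp5a1 had 625 in replicate 3 (568 to 573). At P14 Sdha had 181 CPM in replicate 4 (199.9 to 202) and the sum of complex V was 2432 in replicate 3 (2220.5 to 2242). At P24 the sum of complex II was 479 CPM in replicate 2 (456 to 459). At P60 Cox7a2 had 74.3 CPM in replicate 1 (66.4 to 67.3).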

How the results depend on the processing

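No called change of a named gene changed direction under the alternatives run, while some medians and the complex II sum, which carry no test, changed sign as given here. The number of subunits called depended on which libraries set the spread. With a fold of at least 2 added it was 2, 1, 2, 0, 1 and 5 for E17 against E13, P1 against E17, P14 against P5, P24 against P14, P60 against P24 and P60 against P1. Fits on the compared stages alone called 23, 27, 5, 22, 3 and 36 for the 6 adjacent steps. Without the E13 libraries 28, 6, 22, 2 and 36 were called from P1 against E17 on, and without E13 libraries 1 and 4 and P1 library 1 (chosen after seeing the data) 35, 4, 19, 2 and 39 (42.7%, 26.6%, 43.8%, 13.7% and 29.4% of all genes called). limma-voom with quality weights called 40, 6, 24, 5 and 37 for these steps, beside 52.6%, 38.1%, 51.2%, 19.3% and 32.6% of all genes. Library size scaling called 9 for P5 against P1 (median -0.16), 20 for P14 against P5 (median -0.19) and 6 for P60 against P24 (median -0.10), beside 24.7%, 34.5% and 16.7% of all genes, and gave a median of -0.31 for P60 against P1, with 7 higher and 35 lower. The median of all genes was then -0.19, -0.17, 0.10 and -0.22 in these comparisons. For E17 against E13 Sdha was the only subunit called higher with all libraries, and 0 were called higher with library size scaling or on these stages alone, 2 with limma-voom, the replicate block or a GC content offset, 4 with a transcript length offset and 3 without E13 replicate 1 or 4. For P60 over P1 the log2 ratios of the complex sums with library size scaling were -0.24, -0.016, -0.41, -0.29 and -0.69 for complexes I to V. DESeq2 size factors gave 0.22 for complex II in the same comparison. With a GC content offset 12 were called for P1 against E17 (10 higher, 2 lower) and 4 for P5 against P1, beside 40.9% and 27.8% of all genes. With a transcript length offset P1 against E17 split into 4 higher and 4 lower, P14 against P5 into 6 and 5 and P60 against P24 into 3 and 7 (31.2%, 30.8% and 17.2% of all genes called), 3 were called for P5 against P1 and 0 for P24 against P14 (19.1% and 5.96%), the median for P60 against P24 was -0.10, and P60 against P1 split into 18 higher and 21 lower (median 0.004). Without a filter 0 were called for P24 against P14 and 9 for P60 against P24 (2.7% and 8% of all genes), and the DESeq2 Wald test called 2 for P5 against P1 (22%). Without P14 libraries 1, 2 and 3 (chosen after seeing the data), which left 1 P14 library, the subunit median was -0.05 for P14 against P5 and 0.09 for P24 against P14. The replicate block called 2 for P5 against P1 (18% of all genes) and moved no other count by over 1.5 times. Of the named changes it lost Cox4i1 for E17 against E13 (adjusted p = 0.0504) and Ndufv2 for P60 against P24 (adjusted p = 0.0629), and none for P1 against E17 or P60 against P1. By raw counts the share of Cox7a1 at P14 was 5.95%.

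Leaving out 1 library gave 45 to 63 calls for E17 against E13, 3 to 7 for P1 against E17 (3 without E17 replicate 3 or P1 replicate 2), 1 to 2 for P5 against P1 (2 without P1 replicate 4), 4 to 8 for P14 against P5 (4 without P5 replicate 4), 0 to 1 for P24 against P14, 6 to 12 for P60 against P24 (8 without P24 replicate 2 and 6 without P60 replicate 3) and 33 to 36 for P60 against P1. The share of all genes called was not computed for these fits, so the counts have no background beside them. The medians ranged from -0.58 to -0.34, 0.17 to 0.19, 0.00 to 0.06, -0.06 to 0.02, 0.03 to 0.11, -0.26 to -0.20 and -0.17 to -0.07 in the same order. Of 106 changes called for 47 named genes, 34 were lost in at least 1 of these fits and 72 were kept. Of the named changes, 15 were lost with a transcript length offset, 13 with a GC content offset, 13 with library size scaling, 15 without a filter and 16 in fits on the compared stages alone. Where no cause is named above, the cause was not tested. Among 50 subunits with under 10% of their transcript in other genes, 9 rose and 17 fell from P1 to P60 (background 61.1% of all genes called).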
